A study of Mus musculus with 7 samples.

Results

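Most peaks of the first RNA polymerase II (POLII) replicate lay on genomic regions where no other ChIP-seq sample of the series had a peak. A POLII replicate 1-only peak is defined here as a peak of POLII replicate 1 that shares no base with any peak of POLII replicate 2, C-MYC replicate 1, C-MYC replicate 2, SOX2 replicate 1 or SOX2 replicate 2. There were 40660 such peaks among the 53528 peaks of the list, or 76.0% (95% Wilson confidence interval 75.6 to 76.3, which covers counting error only). The 6 lists together held 238420 peaks. The remaining 12868 peaks of POLII replicate 1, called the other peaks below, touched a peak of at least 1 other list. The peaks were chosen by overlap between measured peak lists, so every value below that compares them with the other peaks is a description and carries no test.

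All samples were iMOP cells (immortalized multipotent otic progenitor cells), a mouse line made from SOX2-expressing inner ear progenitors with a retrovirus that carried C-MYC, grown as floating otospheres in DMEM/F12 with B27 and 20 ng/ml of bFGF. RNA POLII was precipitated with antibody clone 4H8, C-MYC with N-262 and SOX2 with clone 6F1.2, each in 2 biological replicates. An input DNA sample was also sequenced and is not analysed here. No ChIP sample has a small-molecule treatment in its labels, and the labels do not say whether the replicates came from separate lines or cultures. RNA POLII is the enzyme that transcribes protein-coding genes, and its ChIP-seq signal is known to pile up at the promoters of active genes and to extend at a lower level through their bodies. SOX2 is a transcription factor of neurosensory progenitors, and C-MYC a factor that binds mainly at promoters of genes already in use. A peak is a stretch with more sequence tags than the background, and its score is 10 times the −log10 of its p-value.

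POLII replicate 1 had the most peaks and the fewest tags in them, 1705241, against 1784465 to 4488517 in the other 5 lists. The total number of reads is unknown, and tags in peaks, which also depend on how many peaks there are and how strong, do not give it. The 6 lists shared a coordinate frame: when the summits of POLII replicate 1 were moved against those of each other list in steps of 500 bp over 1 Mb in both directions, an offset of 0 gave the most coinciding summits on all 20 chromosomes tested (the autosomes and X) and for all 5 lists. Positions are on mouse build mm9. The lists name no genes, and no gene annotation or genome sequence of that build was used here, so peaks are given by position only, and the cell type could not be checked against marker genes.

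POLII replicate 1-only peaks were short and held few tags. Their median length was 541 bp (quartiles 434 and 737), and that of the other peaks was 678 bp (516 and 942). They held a median of 21 tags (16 and 32), against 30 (20 and 47) for the other peaks. Peaks with at most 15 tags made up 23.9% of the POLII replicate 1-only peaks and 10.4% of the other peaks. The lowest count in either class was 12 tags. Tag density was closer, with a median of 39.8 tags per kb against 42.6, and the difference lay mainly in the upper tail, where the 95th percentiles were 63.4 and 84.2 tags per kb. The median score was 62.5 against 73.3, where the lowest score in the list is 50. Fold enrichment over background was similar through the middle of both classes. Its median was 7.65 (quartiles 6.06 and 9.35) for POLII replicate 1-only peaks and 7.50 (5.98 and 9.29) for the other peaks. The 95th percentiles were 11.8 and 12.5. The summit lay near the middle of the peak in both classes, at a median of 50.2% and 50.3% of the length.

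**Figure D1:**
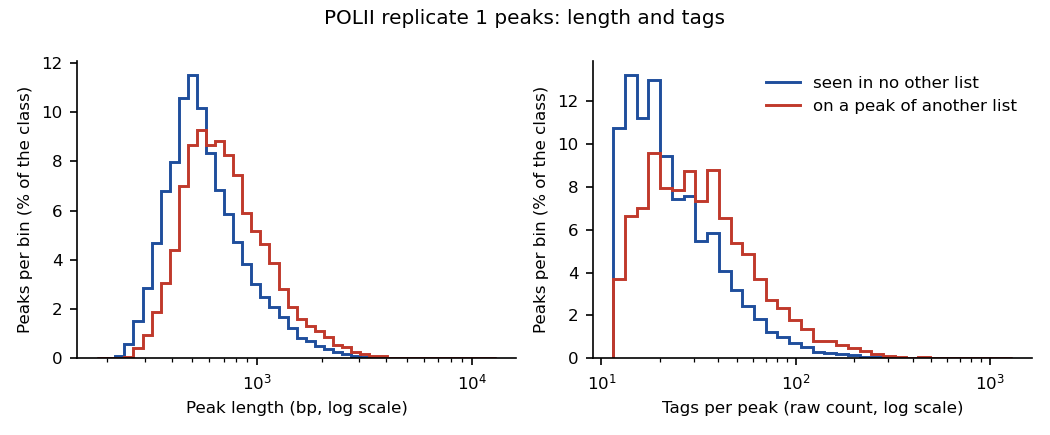
Distribution of peak length (left, bp, log scale) and of raw tags per peak (right, log scale) in POLII replicate 1, as a percentage of each class per bin. The blue line is the 40660 peaks seen in no other list, with medians of 541 bp and 21 tags, and it sits to the left of the red line of the 12868 peaks on a peak of another list, with medians of 678 bp and 30 tags.

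The share of POLII replicate 1 peaks seen nowhere else fell with the strength of the peak. The list was ranked by score and divided into 10 bins of equal size. The share was 84.3% in the bin with the lowest scores, fell in every following bin to 68.2% in the last but one, and dropped to 47.9% in the bin with the highest scores. Of the 535 peaks in the top 1% by score, 60 were seen nowhere else (11.2%, 95% Wilson interval 8.81 to 14.2). Of the 54 peaks in the top 0.1%, with scores of 372.5 or more, 0 were seen nowhere else, which allows a share of up to 6.64%. The share also fell with length, from 92.8% of the peaks up to 300 bp to 52.1% (43.2 to 60.8) of the 121 peaks above 3000 bp. A longer peak has more bases on which to meet another peak. Among peaks of similar length, from 500 to 600 bp, the share was still 84.2% in the 25% of peaks with the lowest scores and 68.5% in the 25% with the highest. Between 1000 and 1500 bp, the corresponding shares were 77.1% and 46.4%.

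**Figure D2:**
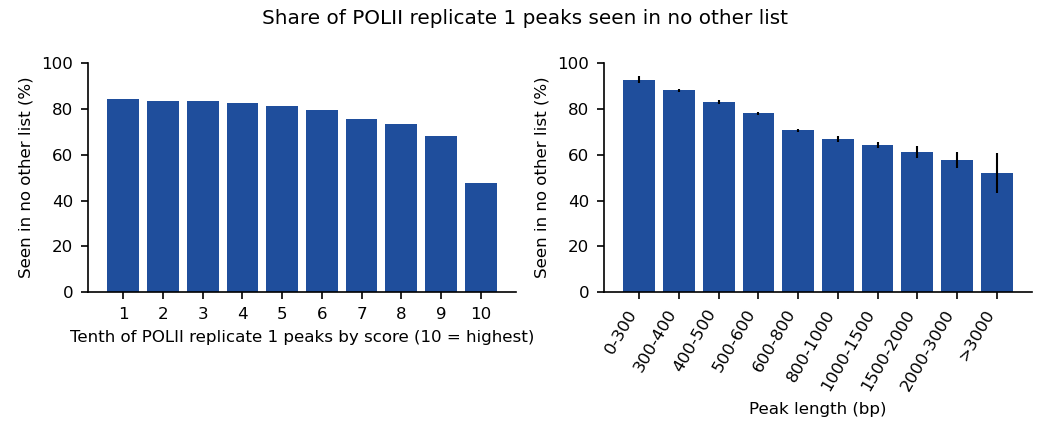
Percentage of POLII replicate 1 peaks seen in no other list, in 10 bins of equal size ranked on score (left) and by peak length in bp (right, with 95% Wilson intervals as black lines). The share is 84.3% in the bin of lowest scores and 47.9% in that of highest, and 92.8% in the shortest and 52.1% in the longest peaks.

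Among the other peaks, 5818 overlapped a single list, and for 3704 of these (63.7%) that list was SOX2 replicate 1. The second POLII replicate was the single list for 488 peaks (8.39%). Counting every overlap, POLII replicate 2 lay on 5259 of the other peaks (40.9%). SOX2 replicate 1 lay on 74.1% of them, the C-MYC replicates on 44.95% and 47.5%, and SOX2 replicate 2 on 32.7%. Only 2328 peaks of POLII replicate 1 lay on peaks of all 5 other lists. The strength of a peak did not rise steadily with the number of lists that shared it. The median was 21 tags in no other list, 27 in 1, 31 in 2, 37 in 3, 34 in 4 and 29 in all 5 lists. Median fold enrichment went from 7.65 in no other list to 7.80 in 1 list and was lowest, at 6.84, in 4.

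Peaks just inside and just outside the rule had similar medians. Of the POLII replicate 1-only peaks, 250 lay within 100 bp of a peak of another list, with a median of 28 tags and 647.5 bp. Of these, chr2:85093160-85094217, with 40 tags, abutted a peak of another list, as did 1 peak on chromosome 18 with 25 tags. On the opposite side, 112 of the other peaks shared at most 100 bases with a peak of another list, with a median of 30.5 tags and 722.5 bp. The smallest overlap, of 1 bp, was that of chr13:49062605-49063194 with 25 tags. Such narrow overlaps were rare, since the other peaks shared a median of 539 bp with the list that overlapped them most, or 90.1% of their length.

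The POLII replicate 1-only peaks with the most tags were wide and weakly enriched. The top 10 held 406 to 840 tags over 3065 to 8916 bp, with fold enrichments of only 3.04 to 4.95. First was chr15:98618790-98624309, with 840 tags, a score of 63.3 and a fold enrichment of 3.52. The longest, chr2:28048798-28057713, held 601 tags over 8916 bp and was enriched 3.32 times. A peak of 5007 bp on chromosome 6, chr6:52263274-52268280, held 588 tags with a fold enrichment of 3.04, the lowest of these 10. Their distance to the nearest peak of another list ran from 1.90 to 22.2 kb. Wide peaks were uncommon, and 171 POLII replicate 1-only peaks (0.421%) were 2500 bp or longer, against 142 of the other peaks (1.10%).

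The POLII replicate 1-only peaks with the highest scores formed a different set. The highest score was 356.9 at chr4:151239587-151240484, a peak of 898 bp with 146 tags and a fold enrichment of 5.95, 2.17 kb from the nearest peak of another list. The next, chr14:69821157-69821938, had a score of 327.2 with 94 tags, a fold enrichment of 13.5 and no peak of another list within 36.4 kb. The top 10 by score ran from 470 to 1867 bp and from 50 to 338 tags. The 10 with the highest fold enrichment, 20.2 to 22.8, were narrow peaks of 334 to 500 bp that held only 24 to 29 tags. The first of them, chr13:10988769-10989268, had 29 tags and lay 335.7 kb from any peak of another list. The peaks of highest fold enrichment held few tags in this class. The top 1% of the list by fold enrichment held 535 peaks. Of these, 281 (52.5%) were POLII replicate 1-only peaks, against 76.0% of the whole list. Among the 281, 251 held at most 30 tags, while 125 of the 254 other peaks in that top 1% held more.

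The density of POLII replicate 1-only peaks varied less between autosomes than that of the other peaks or of any other list. Their density ran from 14.3 per Mb on chromosome 14 to 18.8 per Mb on chromosome 9, with a coefficient of variation of 9.33% over the 19 autosomes. The other peaks of the same list ran from 3.70 per Mb on chromosome 14 to 6.95 per Mb on chromosome 3, with a coefficient of variation of 14.3%. In the other 5 lists the coefficient was 12.1% to 16.5%, and in their peaks seen nowhere else, which are far fewer, it was 10.9% to 23.4%. Over all their peaks, chromosome 11 was the densest autosome in all 5, at 14.1 to 24.8 peaks per Mb. Chromosome 11 carried 17.2 POLII replicate 1-only peaks per Mb, little above the autosomal median of 16.1. Across the 19 autosomes, the density of POLII replicate 1-only peaks correlated with that of the other peaks (Pearson's r = 0.586 and Spearman's rho = 0.609) and with those of the other lists (r from 0.474 to 0.614 and rho from 0.502 to 0.705). These values are a description over chromosomes, all measured in the same libraries. The position of the last peak in any of the lists stood for the length of a chromosome.

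Few of them lay on chromosome X, which carried 171 POLII replicate 1-only peaks, or 1.03 per Mb, 15.7 times below the autosomal median. The other peaks of POLII replicate 1 were 14.1 times below their own autosomal median, so the shortage was common to both classes of the list. In the other 5 lists, the density on X was 2.99 to 3.56 times below the autosomal median. Their own peaks seen nowhere else were 3.08 to 5.68 times below it. The POLII replicate 1-only peaks on X had a median of 17 tags and a fold enrichment of 7.91, against 21 tags and 7.64 on the autosomes. Chromosome Y held 6 of them.

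**Figure D3:**
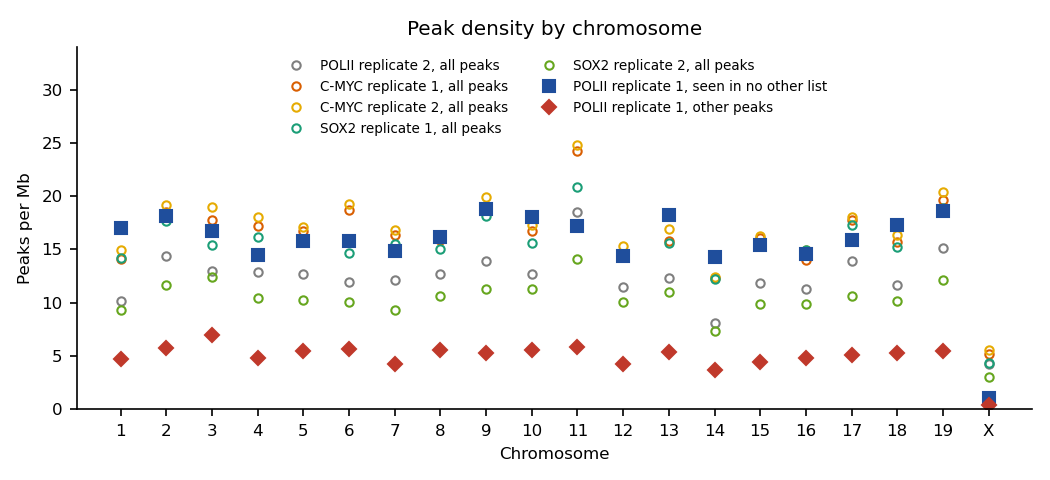
Peaks per Mb on each autosome and on chromosome X (Y is left out). Blue squares are POLII replicate 1 peaks seen in no other list, which stay between 14.3 and 18.8 per Mb on the autosomes and drop to 1.03 on X. Red diamonds are the other POLII replicate 1 peaks, and open circles are all peaks of the other 5 lists, which are densest on chromosome 11.

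Neighbouring POLII replicate 1-only peaks on the autosomes were separated by a median of 28.8 kb between edges (quartiles 11.6 and 66.8), and the other peaks by 89.1 kb. Spacing depends on the number of peaks, so each set was also cut to its 26637 highest-scoring peaks. The POLII replicate 1-only peaks then had a median spacing of 44.0 kb, longer than the 28.6 to 35.9 kb of the other 5 lists. Their spacing was also less variable, with an SD of 1.75 times the mean against 2.64 to 3.08 times. All peaks of POLII replicate 1, cut in the same way, had nearly the same values, with a median of 44.9 kb and an SD of 1.82 times the mean. Along a chromosome, POLII replicate 1-only peaks came in 9065 runs unbroken by other peaks of the list. The median run held 3 peaks and the longest 44. Run length depends on the share of these peaks in the list, which was 76.0%. The runs were not compared with a random order, so they do not tell whether these peaks cluster.

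Close neighbours were scarce. Summits of POLII replicate 1-only peaks were counted in steps of 1 kb around each other and set against the mean count per step between 10 and 20 kb. The ratio was 0.195 within 1 kb, 0.284 from 1 to 2 kb and 0.615 from 2 to 3 kb. It was 0.852 from 4 to 5 kb and rose to 1.15 from 5 to 6 kb. Around their own summits, the other 5 lists had ratios of 0.159 to 0.298 within 1 kb. They had 0.357 to 0.471 from 2 to 3 kb and 0.560 to 0.729 from 4 to 5 kb. All peaks of POLII replicate 1 had 0.170, 0.564 and 0.827 at these 3 distances. All 5 other lists had the same step at 5 kb around their own summits. Their count rose 1.54 to 1.83 times there, against 1.35 times for the POLII replicate 1-only peaks. It rose 1.35 times for all peaks of POLII replicate 1 and 1.36 times for the other peaks among themselves. The smaller step was thus common to the list. The cause was not tested. No such step was found between POLII replicate 1-only summits and those of the other lists, where the counts changed 0.999 to 1.08 times at 5 kb. Around the other peaks, which lie on peaks of those lists by the rule, the counts of the other lists rose 1.38 to 1.46 times there.

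**Figure D4:**
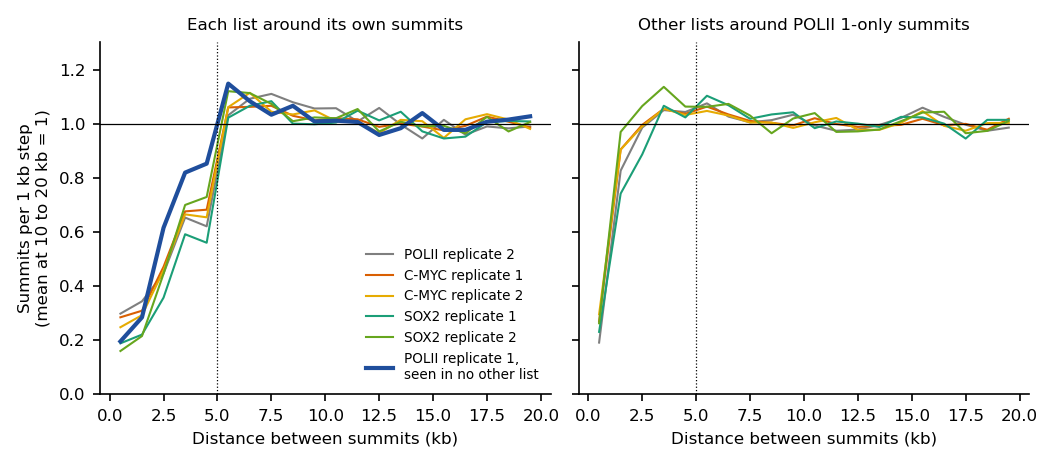
Number of summits per 1 kb step of distance, relative to the mean between 10 and 20 kb (horizontal line at 1, dotted line at 5 kb). On the left, POLII replicate 1 peaks seen in no other list (thick blue) and the 5 other lists around their own summits all rise at 5 kb. On the right, the summits of the 5 other lists around POLII replicate 1-only summits are low in the first 1 kb, where the rule removes overlaps, and stay within 0.886 to 1.14 from 2 kb on.

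The distance to the nearest peak of any other list had a median of 11.2 kb (quartiles 4.27 and 29.9). Of the POLII replicate 1-only peaks, 6.52% (95% Wilson interval 6.29 to 6.77) lay within 1 kb of such a peak, 28.6% (28.2 to 29.1) within 5 kb and 92.2% (91.9 to 92.5) within 100 kb. These distances depend on how many peaks the lists hold. With only the 50% of each list with the highest scores, the median was 29.7 kb and 13.5% lay within 5 kb, and with 26637 peaks from every list the median was 18.9 kb and 19.5% lay within 5 kb. By list, the median distance was 36.3 kb to POLII replicate 2, 22.4 and 20.7 kb to C-MYC replicates 1 and 2, 20.6 kb to SOX2 replicate 1 and 34.6 kb to SOX2 replicate 2. POLII replicate 2 was the nearest list for 9.58% of the POLII replicate 1-only peaks, although it held 17.2% of the peaks of the 5 lists. C-MYC replicate 1 was also below its share, nearest for 14.9% with 22.95% of the peaks, and C-MYC replicate 2 was close to it, with 22.6% and 23.9%. SOX2 replicate 1 was the nearest for 33.8% and held 21.6%, and SOX2 replicate 2 for 19.1% and held 14.4%. Most peaks of each of these lists overlapped a peak of another list, so a share of the peaks is only a rough reference. The other peaks had shorter median distances to the lists they did not overlap, for example 27.4 kb from POLII replicate 2 and 14.3 kb from SOX2 replicate 1. By the rule, each of them lay on a peak of some other list. Shares within 5 kb were close, at 12.2% of these other peaks and 12.4% of the POLII replicate 1-only peaks for POLII replicate 2. The C-MYC lists and SOX2 replicate 2 were alike in this. For SOX2 replicate 1 the shares were 20.8% and 16.7%.

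Beyond the first 2 kb, the number of summits of other lists around POLII replicate 1-only summits stayed between 0.886 and 1.14 times its level at 10 to 20 kb. From 2 to 20 kb, each 1 kb step held between 1084 and 1197 summits of POLII replicate 2. The range was wider for SOX2, from 1364 to 1698 summits of replicate 1 and from 987 to 1162 of replicate 2. The other peaks overlap such lists by definition. Within 1 kb of them, POLII replicate 2 summits stood at 9.40 times their 10 to 20 kb level. A shortage followed, with 0.419 times that level from 2 to 3 kb. Around its own summits, POLII replicate 2 had a similar ratio of 0.446 at that distance.

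The same rule was applied to the other 5 lists. Peaks seen in no other list made up 13.7% of POLII replicate 2, 9.49% and 11.4% of the C-MYC replicates, and 19.2% and 15.4% of the SOX2 replicates. In those lists, the peaks seen nowhere else were also shorter and poorer in tags, with the median of the rest 2.2 to 3.54 times higher in tags and 1.58 to 1.75 times higher in length. In POLII replicate 1 these ratios were only 1.43 and 1.25. The 40660 peaks held 68.5% of the tags in POLII replicate 1 peaks, while the peaks seen nowhere else held 2.98% to 7.30% in the other lists.

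The median distance to peaks of other lists was also longer for the POLII replicate 1-only peaks. Distances were compared within pairs, against the same 4 lists that exclude POLII replicate 1 and the list it is paired with. The median distance of the POLII replicate 1-only peaks was 11.7 kb against 6.80 kb for peaks seen only in POLII replicate 2, 11.9 and 12.3 kb against 6.86 and 7.90 kb for C-MYC replicates 1 and 2, and 14.3 and 12.1 kb against 10.4 and 8.66 kb for SOX2 replicates 1 and 2. The order of the medians was the same in all 5 pairs. It did not hold at short range in the SOX2 replicate 1 pair, where 5.75% of the POLII replicate 1-only peaks and 5.04% of the peaks seen only in SOX2 replicate 1 lay within 1 kb. Per Mb of sequence, the number of POLII replicate 1-only summits at 50 to 100 kb from a peak of the 4 lists was 0.700 to 0.823 times that at 1 to 5 kb. For peaks seen only in 1 of the other lists, it was 0.107 to 0.467 times.

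The autosomes were divided into windows of 1 Mb. The median window held 16 POLII replicate 1-only peaks (quartiles 9 and 24), and 46 of 2406 windows had none. Ranked by the mean number of peaks in the other 5 lists, the 10% of windows with the fewest held a mean of 4.14 POLII replicate 1-only peaks each. The count rose to 23.5 in the seventh and eighth of the 10 bins and then fell to 16.7 in the 10% of windows with most peaks of the other lists. The other peaks of POLII replicate 1 rose throughout, from 0.249 to 9.62 per window. Peaks of the 5 lists covered 8.49% of the sequence in the last bin and 4.23% in the eighth. There were 126 windows without a peak in any of the 5 other lists, and 92 of them contained POLII replicate 1-only peaks, 395 in all and up to 15 in a window. Farther from other peaks, POLII replicate 1-only peaks were smaller but not less enriched. Their median went from 24 tags and a fold enrichment of 7.03 at 1 to 5 kb from a peak of the 5 lists to 16 tags and 8.78 at 100 to 500 kb. Peaks seen only in 1 of the other lists changed in the same direction in all 5, so this was not particular to POLII replicate 1. In SOX2 replicate 2, for example, the medians went from 30 tags and 6.56 to 16 tags and 8.16. Those lists had only 5 to 81 such peaks at 100 to 500 kb. Every POLII replicate 1 peak had a score of at least 50. The median score of its peaks seen nowhere else was 61.6 at 1 to 5 kb and 64.35 at 100 to 500 kb. Whether this floor links tags and fold enrichment was not tested.

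**Figure D5:**
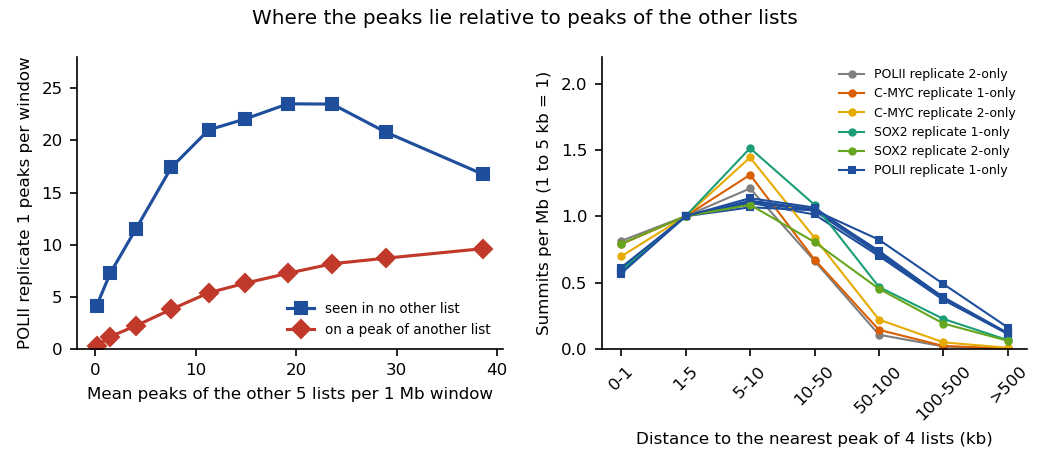
Left, POLII replicate 1 peaks per 1 Mb window of the autosomes against the mean number of peaks of the other 5 lists, in 10 bins of windows: peaks seen in no other list (blue) rise to 23.5 and fall to 16.7, while the other peaks (red) rise to 9.62. Right, summits per Mb of sequence by distance to the nearest peak of 4 lists, relative to 1 to 5 kb, for peaks seen only in 1 list: the 5 blue lines, POLII replicate 1-only peaks measured against each set of 4 lists, stay above the line of the paired list from 50 kb on.

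The densest windows lay on 5 chromosomes. The window chr2:74000001-75000000 held 74 POLII replicate 1-only peaks with a median of 593 bp, 32 tags and a fold enrichment of 6.55, and only 5 to 12 peaks of each other list. The next window on that chromosome, chr2:75000001-76000000, held 52 of them and 16 to 28 peaks of each other list. On chromosome 1, chr1:63000001-64000000 held 62 POLII replicate 1-only peaks beside 8 to 18 peaks of each other list. A window on chromosome 18 held 56, which were long, with a median of 1055 bp and 44 tags. Windows chr6:6000001-7000000 and chr8:110000001-111000000 held 52 each. In all of them except the second on chromosome 2, no other list had more than 18 peaks.

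The longest stretches without a POLII replicate 1-only peak were on chromosomes X and 7. The longest of all, chrX:117293079-127037563, ran over 9.74 Mb and held 6 to 10 peaks of each other list. On chrX:148781954-155979362, 7.20 Mb without any POLII replicate 1-only peak held 21 to 36 peaks of each other list. The longest on an autosome, chr7:39164638-46529481, ran over 7.36 Mb and had no peak in any of the 6 lists.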

How the data were processed

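ChIP-seq peak lists of 6 samples were used, 2 each for POLII, C-MYC and SOX2. The input DNA was not used here. The authors called peaks per replicate and deposited 1 list for each. Deposited tags are raw counts per peak, not scaled for library size. Per the file headers, the deposited score is a −log10 p-value multiplied by 10. It is at least 50, a p-value of 1e-05. The deposited fold enrichment is a linear ratio over a background that is not stated. The labels name build mm9. The aligner, the peak caller and its control are not given in the sources used here, although the column names are those of MACS.

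Overlap meant at least 1 shared base. Distances and spacing were taken between peak edges, and neighbour counts and windows (from 3 Mb on) used summits. In the counts per Mb by distance, sequence between the first and last peak of the reference lists on each autosome was counted. Ranges of a median are quartiles. The tools were pandas 2.3.3, numpy 2.4.6, scipy 1.17.1 and matplotlib 3.10.9 under python 3.11.15. Scripts were tested on simulated peaks, with 6 of 6 quantities recovered, and overlap counts equalled those of bedtools 2.31.1 in 30 of 30 ordered pairs of lists. No test was run, because the rule used all 6 lists and peaks of a single library are not replicates. Named regions were the 10 highest by tags, score and fold enrichment, the 5 longest, the 5 densest windows with ties, the 5 longest empty stretches and the peaks nearest the edge of the rule, of which a part is printed. No gene was named, since no mm9 annotation was used. The members and measures were chosen with earlier results of these data known. The neighbour counts, the windows ranked by other lists and the comparison against the same 4 lists were added after the data were seen. Alternatives changed the overlap, the score, the length, the chromosomes or the lists in the rule.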

Additional observations from a re-analysis of the deposited data

How the results depend on the processing

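Over 13 alternatives and 8 values, 52 of 104 recomputed values stayed within the 95% interval of the reported value (Wilson for a share, from the ranks for a median, and within 1.5 times for the number of peaks) and 52 moved. These intervals are narrow because the peaks are many. Values are given for the number and share of POLII replicate 1-only peaks, their median length, tags and fold enrichment, the spacing (29.0 kb over all chromosomes), the distance to the nearest other list and the share within 5 kb, as far as they moved. With the 50% of each list with the highest scores they were 22967 peaks, 85.8%, 602 bp, 26 tags, 8.33, 51.6 kb, 29.7 kb and 13.5%. With 26637 peaks from every list they were 20879 peaks, 78.4%, 594 bp, 26 tags, 8.33, 56.9 kb, 18.9 kb and 19.5%. With POLII replicate 1 peaks up to their median length they were 22371 peaks, 83.6%, 444 bp, 16 tags, 8.70, 52.8 kb, 13.3 kb and 24.8%. Each of these keeps fewer POLII replicate 1 peaks by construction. When a peak within 1 kb counted as overlapping, the share was 71.0%, the length 538 bp, the fold enrichment 7.74, the spacing 30.9 kb, the distance 12.6 kb and the share within 5 kb 23.7%. With an overlap of 50% of the shorter peak, 76.5% were seen nowhere else and 29.2% lay within 5 kb. With summits inside the other peak, these were 76.5% and 29.1%. Leaving out a list from the rule gave 41099 to 44364 peaks, 76.8% to 82.9%, 542 to 549 bp, 21 tags throughout, 7.64 to 7.69 in fold enrichment, 26.8 to 28.8 kb in spacing, 11.54 to 14.3 kb in distance and 24.6% to 27.9% within 5 kb. Apart from the tags, the value farthest from the reported one came each time without SOX2 replicate 1. Autosomes only, or leaving out distal chromosome 6, moved none of the 8 values.

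No paired analysis was possible because no result comes from a test. The total reads of the libraries are unknown. POLII replicate 2, made with the same antibody, had 13.7% of its peaks seen nowhere else. POLII replicate 1 is a single sample, so what is particular to its culture, its library and its depth cannot be told apart.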

Other observations

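Along the autosomes, POLII replicate 1-only peaks were less tilted to the distal end than the other peaks or any other list as a whole. The peaks seen nowhere else in those lists were not examined for this. Each autosome was divided into 5 stretches of 20%. The stretch farthest from position 1 held 23.1% of the POLII replicate 1-only peaks, against 26.4% of the other peaks and 25.2% to 27.3% of the peaks of the other 5 lists. The stretch that starts at position 1 held 16.7%, against 15.9% and 13.9% to 15.4%.

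Peaks with exactly 12 tags, the lowest count in POLII replicate 1, made up 4.59% of the POLII replicate 1-only peaks (1867 peaks) and 1.4% of the other peaks (180 peaks).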
